A study of Homo sapiens with 3 samples.

Results

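The core circadian clock was described here as 10 genes out of 20033 protein-coding genes: CLOCK, BMAL1, NPAS2, PER1, PER2, PER3, CRY1, CRY2, NR1D1 and NR1D2. They were chosen by name, and each locus was the RefSeq gene record on hg38 with 50 kb on either side. The data were chromatin immunoprecipitation with sequencing (ChIP-seq) of THP1, a human monocytic leukaemia line of wild type genotype, after 24 h with PMA, a phorbol ester that makes THP1 cells attach and take on macrophage features. One library was made with an antibody to acetylated lysine 27 of histone H3 (H3K27ac), a modification found where promoters and enhancers are active, and 1 with an antibody to SIRT1, an NAD-dependent deacetylase. An input library, without antibody, is not analysed here. All libraries were made after PMA, so no comparison with untreated cells or across time of day was possible, and with 1 library per antibody there was no replicate check and no test.

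The clock is a feedback loop of transcription. CLOCK, or its relative NPAS2, pairs with BMAL1 and binds E-boxes, where the pair switches on the PER and CRY genes, whose proteins return to the nucleus and inhibit it. The same pair switches on NR1D1 and NR1D2, which encode the REV-ERB receptors, and these repress BMAL1 through a REV-ERB and ROR response element (RRE). In macrophages the REV-ERBs and BMAL1 are known to limit inflammatory genes, and SIRT1 is known as a regulator that binds CLOCK and BMAL1 and deacetylates BMAL1 and PER2.

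The DNA letters the clock reads are shown for the members whose acetylation is described below. RefSeq transcript starts of assembly GRCh38.p14 were used, with 250 bases before and 50 after each start, and all 10 members matched, with 15 such windows. Of the member windows, 7 of 15 held the E-box CACGTG or its variant CACGTT, counted on both strands, against 12.2% of all 35116 windows. By gene, 7 of 10 members held one, against 17% of protein-coding genes. The members are known for such sites, so these shares are a description. The first set gives the 250 bases before the start of 4 repressor genes, 5′ to 3′ in the direction of the gene, with every match that lies whole in them in capitals.
PER1 promoter, chr17:8152405-8152654, minus strand: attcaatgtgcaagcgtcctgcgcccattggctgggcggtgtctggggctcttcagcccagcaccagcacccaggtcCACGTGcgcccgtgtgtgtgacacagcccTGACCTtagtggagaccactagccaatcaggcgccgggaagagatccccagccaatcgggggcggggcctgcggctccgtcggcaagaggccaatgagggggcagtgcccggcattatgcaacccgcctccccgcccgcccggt
PER2 promoter, chr2:238288611-238288860, minus strand: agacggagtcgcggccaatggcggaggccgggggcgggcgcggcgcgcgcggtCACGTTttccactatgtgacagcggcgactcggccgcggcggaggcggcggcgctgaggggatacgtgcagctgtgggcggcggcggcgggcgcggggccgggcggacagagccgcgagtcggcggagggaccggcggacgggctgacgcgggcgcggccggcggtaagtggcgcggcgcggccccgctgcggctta
CRY1 promoter, chr12:107093550-107093799, minus strand: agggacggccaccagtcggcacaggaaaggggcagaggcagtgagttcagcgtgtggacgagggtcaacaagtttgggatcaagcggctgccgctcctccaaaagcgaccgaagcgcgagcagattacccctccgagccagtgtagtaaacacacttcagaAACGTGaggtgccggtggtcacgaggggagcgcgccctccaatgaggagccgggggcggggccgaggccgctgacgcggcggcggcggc
NR1D1 promoter, chr17:40100590-40100839, minus strand: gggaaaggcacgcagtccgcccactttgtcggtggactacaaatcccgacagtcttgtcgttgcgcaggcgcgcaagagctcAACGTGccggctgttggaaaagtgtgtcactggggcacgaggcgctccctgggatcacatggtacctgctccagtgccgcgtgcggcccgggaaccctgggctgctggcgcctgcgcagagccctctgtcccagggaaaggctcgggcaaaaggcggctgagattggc

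PER1 held CACGTG at positions -173 to -168 from its start and a reverse AGGTCA, the core of the RRE, at -144 to -139. PER2, CRY1 and NR1D1 held CACGTT, on the reverse strand in CRY1 and NR1D1, beginning at -197, -89 and -168. The second set gives single sites of 30 bases with the motif in capitals. They are from other members with a match, plus the PER2 site that spans its start. Not every match is shown.
BMAL1 AGGTCA site, chr11:13277809-13277838, plus strand: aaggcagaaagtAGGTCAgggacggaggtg
CLOCK CACGTT site, chr4:55546102-55546131, minus strand: tcaccactcgggCACGTTtggagcagcgcc
CRY2 CACGTT site, chr11:45847275-45847304, plus strand: acacatggtaggAACGTGagggggcgggcc
NR1D2 first CACGTG site, chr3:23945954-23945983, plus strand: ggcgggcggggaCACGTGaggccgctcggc
NR1D2 second CACGTG site, chr3:23946004-23946033, plus strand: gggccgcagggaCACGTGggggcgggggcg
PER2 TTACGTAA site, chr2:238288595-238288624, minus strand: cccgctgcggcTTACGTAAccgccgccggc
PER3 TTATGTAA site, chr1:7784103-7784132, plus strand: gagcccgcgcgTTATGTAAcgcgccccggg

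At BMAL1 the AGGTCA site lay 32 to 37 bases after a start and inside the H3K27ac peak described below. The CACGTT sites of CLOCK, PER2 and CRY1 also lay inside H3K27ac peaks. Those of CRY2 and NR1D1 lay outside, 148 and 910 bp from the nearest one. Both CACGTG sites of NR1D2 lay just past the edge of its peak, by 30 and 80 bp, and that of PER1 by 143 bp. In all, 6 of 15 matches lay inside an H3K27ac peak, and none shared a base with a match of another motif. The share inside a peak was not computed over the matches of all windows, so 6 of 15 is a description only.

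The other motifs were searched on both strands too. AGGTCA was in 4 of 15 member windows, from 3 members, and in 13.8% of all windows. The D-box TTACGTAA, bound by DBP and its relatives, spanned the start of PER2, from -3 to 5, and was in 0.125% of all windows. Its variant TTATGTAA was in 2 of 15 member windows, of PER3 and NR1D2, and in 0.886% of all. The cAMP element TGACGTCA (1.85% of all windows), the AP-1 site TGANTCA (7.71%) and the PU.1 site GAGGAAGT (2.59%) had no match in a member window, and NPAS2 had no match of any motif searched.

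H3K27ac lay at the start of most core clock genes. A peak lay within 1 kb of the 5′ end of the gene record in 8 of 10 members, against 56.8% of the 15842 protein-coding genes with a known strand. The exceptions were BMAL1 and PER2, in which the acetylated RefSeq start lay more than 1 kb inside the record. With any RefSeq transcript start, a choice made after seeing the data, the count was 10 of 10, against 59.4% of genes. The median fold at the start, the authors' own value over local background, was 17.1 in the 10 members and 19.2 in all 9405 marked genes. Of the members, 6 lay below that median, so the folds of the clock genes were in the ordinary range. Within 500 bp of the record start the count was 5 of 10, against 55.4% of genes.

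**Figure D1:**
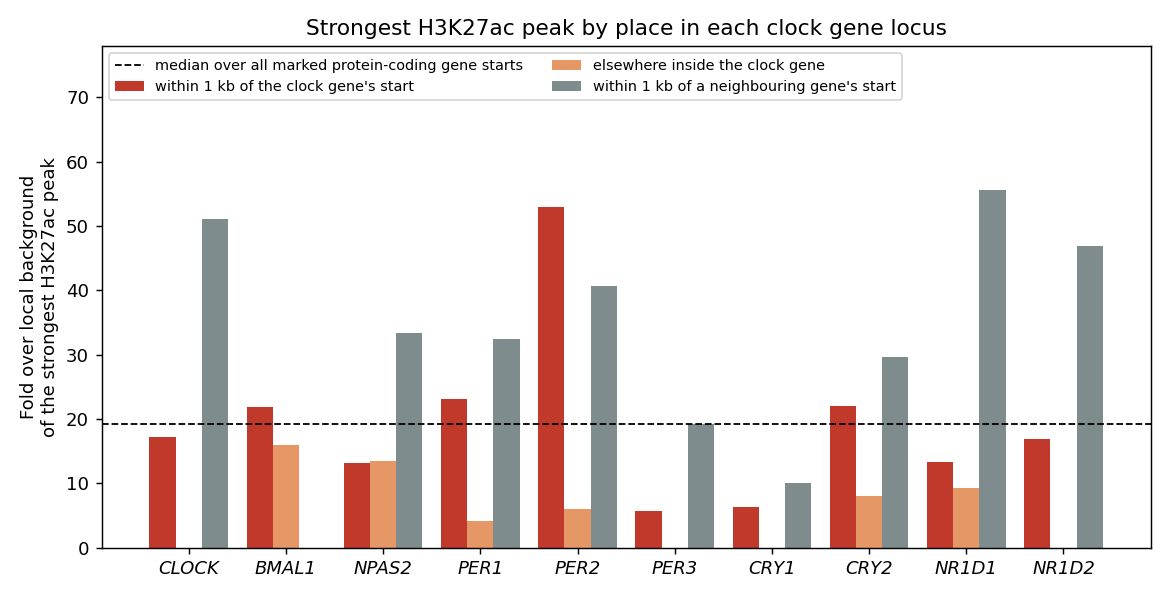
Fold over local background (linear axis from 0) of the strongest H3K27ac peak at each clock gene's start, elsewhere inside its record and at a neighbouring protein-coding gene's start, 1 library. The dashed line is the median of 19.2 over all marked starts, and the grey bar is the tallest in 8 of 10 loci.

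Among the activators, BMAL1 had the highest fold at its start. BMAL1 (chromosome 11, 13276652 to 13387266, plus strand) had its start peak between 13277748 and 13278816, and the fold was 21.9 on 99 fragments (95% Poisson interval 80.5 to 121). It covered the RefSeq start at 13277790, which lies 1138 bp into the record. CLOCK (chromosome 4, 55427903 to 55546909, minus strand) had a peak of 2045 bp from 55545528 to 55547572 with a fold of 17.3 on 89 fragments (71.5 to 110), and it covered both RefSeq starts of the gene. NPAS2 (chromosome 2, 100818723 to 100996829, plus strand) had a fold of 13.2 on 38 fragments (26.9 to 52.2) from 100819635 to 100820974.

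Inside the gene bodies the 3 activators differed. CLOCK had no H3K27ac peak in its 119 kb record beyond the one at the start. BMAL1 had 9 further peaks inside its record, and 7 of them lay together in 24.9 kb, from 13325249 to 13350167. The strongest, from 13337635 to 13339882, had a fold of 16.0 on 36 fragments (25.2 to 49.8), and its summit lay 61160 bp from the nearest start. NPAS2 had 5 further peaks inside its record. The strongest of these, from 100856852 to 100858043, had a fold of 13.5 on 37 fragments (26.1 to 51), as many as its start peak within counting error.

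The PER genes, the repressors that accumulate in the daily cycle, spanned the whole range of folds seen in the members. PER2 (chromosome 2, 238244044 to 238300065, minus strand) had the highest of the 10, a peak of 2890 bp from 238286757 to 238289646 with a fold of 53.0 on 155 fragments (132 to 181). That fold was higher than in 90.4% of marked genes. Its summit lay 161 bp downstream of the RefSeq start at 238288610. That start lies inside the record, 11455 bp downstream of its 5′ end at 238300065. PER3 (chromosome 1, 7784291 to 7845177, plus strand) had the lowest, 5.71 on 13 fragments (6.92 to 22.2), higher than in 9.06% of marked genes. This narrow peak of 243 bp, from 7783372 to 7783614, stopped 677 bp before the start, and no H3K27ac peak overlapped the PER3 record.

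PER1 (chromosome 17, 8140472 to 8152404, minus strand) carried its main peak over the start, between 8151364 and 8152429, and its fold was 23.1 on 44 fragments (32 to 59.1). Smaller peaks flanked it: 2 inside the gene with folds of 4.13 and 3.61, and 3 upstream with folds of 5.16, 8.62 and 6.20. The PER1 locus held 15 H3K27ac peaks, or 13.4 per 100 kb, more than in 96.0% of protein-coding genes. This was the densest of the member loci, named as the highest of 10, and 9 of its 15 peaks had a −log10 q of at least 5. Of the 15, only 3 overlapped the PER1 record. Another 3 lay at neighbours' starts, and 8 lay in the flanks away from the starts examined.

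The CRY genes, whose proteins block CLOCK and BMAL1 directly, had fragment intervals that did not overlap. CRY2 (chromosome 11, 45847118 to 45883244, plus strand) had a fold of 22.0 on 78 fragments (61.7 to 97.3) from 45847440 to 45848214. CRY1 (chromosome 12, 106991364 to 107093549, minus strand) had a fold of 6.35 on 28 fragments (18.6 to 40.5) from 107093104 to 107094204, with its summit 119 bp upstream of the start. CRY2 had 3 further peaks inside its record, the strongest with a fold of 8.01, and CRY1 had none.

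The REV-ERB genes had intermediate folds. NR1D1 (chromosome 17, 40092793 to 40100589, minus strand) was the member marked inside rather than on its start. Its main peak spanned 3342 bp from 40096501 to 40099842 with a fold of 13.3 on 31 fragments (21.1 to 44), and it ended 747 bp inside the gene. H3K27ac peaks covered 59.9% of the 7.80 kb NR1D1 record, a higher share than in 97.2% of protein-coding genes, against a median of 4.16% in the members and 1.47% in all genes. NR1D2 (chromosome 3, 23945286 to 23980617, plus strand) had a peak of 694 bp from 23945243 to 23945936 with a fold of 16.9 on 43 fragments (31.1 to 57.9). That peak also lay within 1 kb of a start of NKIRAS1, on the opposite strand, so it cannot be assigned to NR1D2 alone.

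The order of the members depended on the local background. By fold PER2 came first and PER1 second. By fragments at the summit, BMAL1 with 99, CLOCK with 89 and CRY2 with 78 all lay above PER1 with 44. The background at the PER1 summit was 0.944 fragments, near the lowest of the list, and at CLOCK, BMAL1 and CRY1 it was 4.22, 3.57 and 3.57. By either measure PER2 was highest and PER3 lowest.

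The strongest H3K27ac peak of a clock locus usually lay at the start of another gene. In 8 of 10 loci it lay within 1 kb of a neighbour's start, and in 2, BMAL1 and PER2, at the member's own start. Over all genes with a strand and a peak in the locus, it lay at the gene's own start in 37.2%. The share at a neighbour's start was not computed over all genes, so 8 of 10 is a description only and not a trait of clock loci. The neighbours were TMEM165 beside CLOCK with a fold of 51.1, RPL31, a ribosomal protein gene, beside NPAS2 with 33.4, and VAMP2, a vesicle fusion gene, beside PER1 with 32.4. VAMP3, its relative, had 19.2 beside PER3. TMEM263 had 10.1 beside CRY1, PEX16, a peroxisome gene, had 29.7 beside CRY2, and MSL1, a subunit gene of a histone acetyltransferase complex, had 55.7 beside NR1D1. Beside NR1D2 the peak with a fold of 47.0 lay at starts of both RPL15 and NKIRAS1. Peaks in these loci therefore cannot be read as clock gene elements by distance alone.

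Across the 10 loci there were 68 H3K27ac peaks, of 48735 on the primary chromosomes, and all 10 held at least 1, against 83% of genes. Of these, 11 lay at a member's start, 22 elsewhere inside a member's record, 16 at a neighbour's start and 19 in none of these places. This split was not computed over the loci of all genes, so it is a description only. The median was 6 peaks per locus, from 2 at CLOCK and PER3 to 15 at PER1, and 3 over all protein-coding genes. The loci of the members were longer, with a median of 158 kb against 124 kb. Per 100 kb of locus the median was 3.58, against 2.39.

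**Figure D2:**
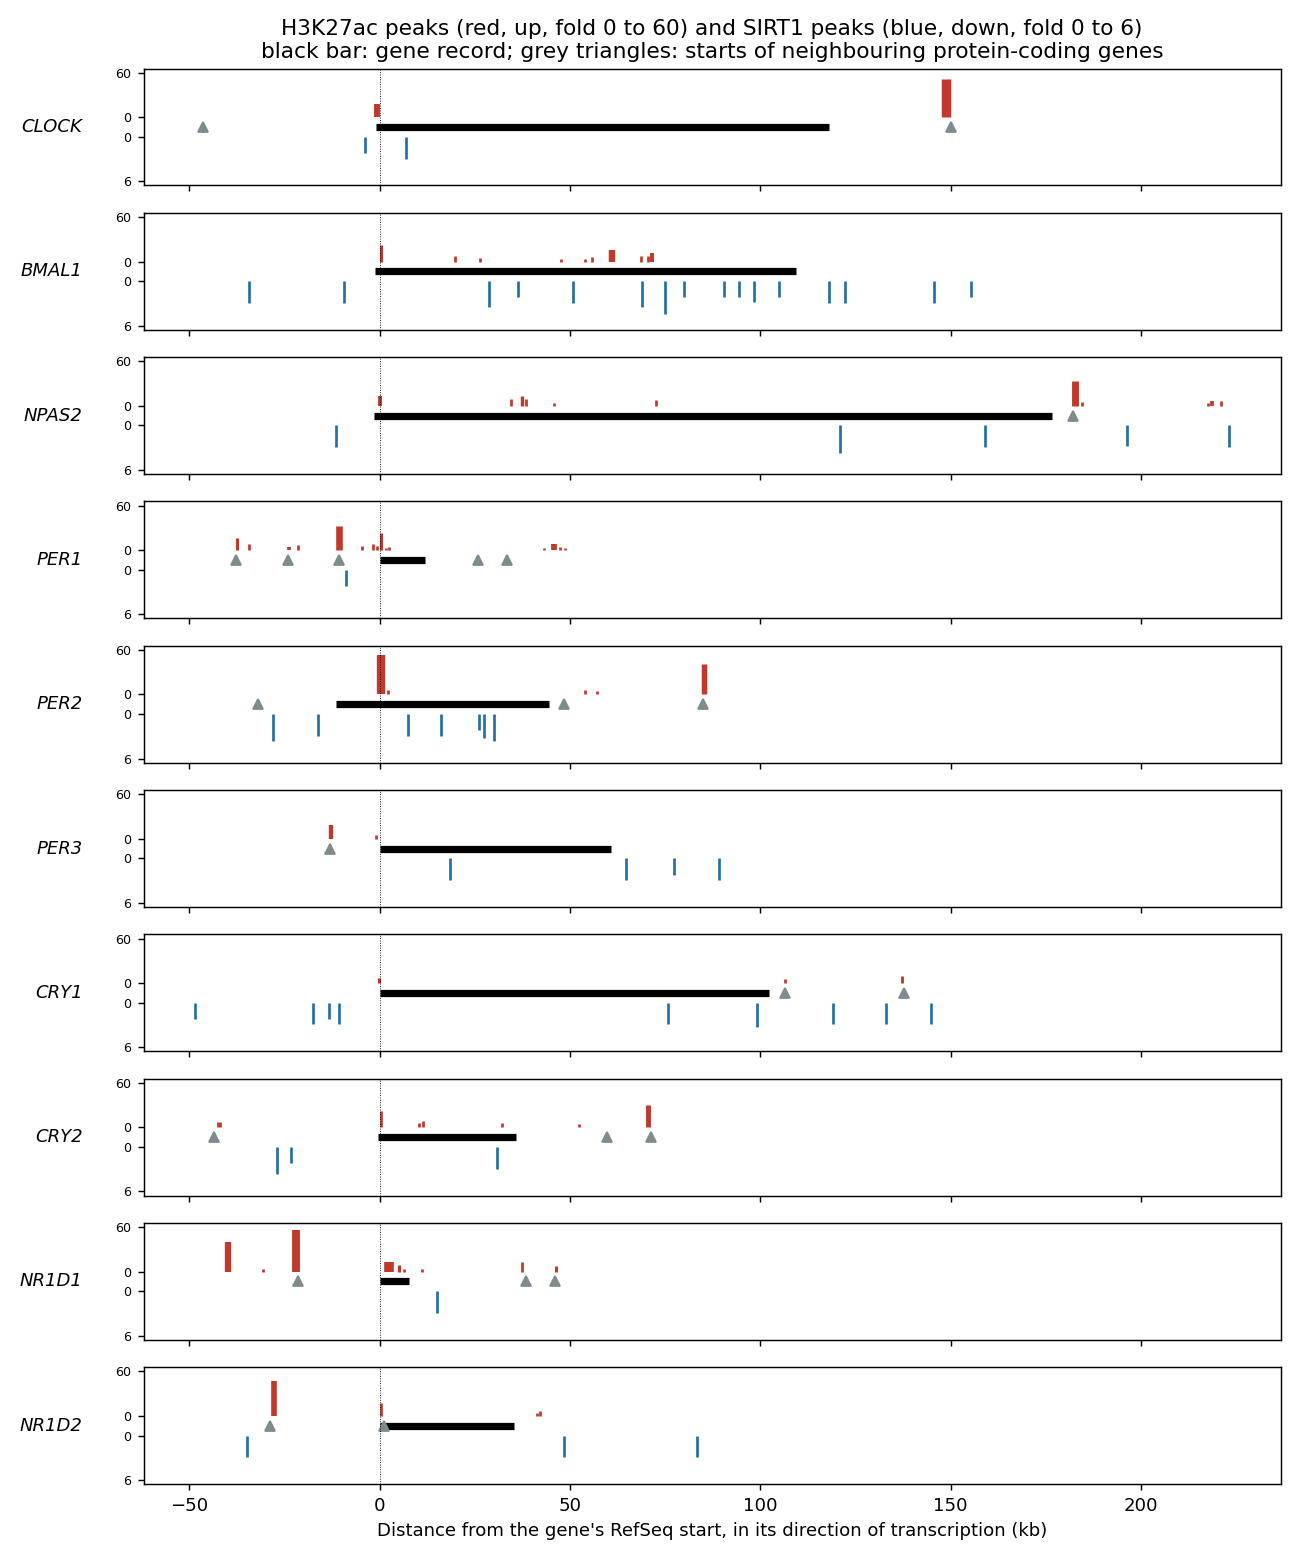
Peaks of both lists in each clock gene locus, by distance in kb from the RefSeq start nearest the start peak, in the direction of transcription. Red bars upward are H3K27ac folds on a scale to 60, blue bars downward SIRT1 folds on a scale to 6, the black bar is the gene record and grey triangles are starts of neighbours with a known strand; the 16 SIRT1 peaks of BMAL1 run along and past the gene.

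SIRT1 peaks lay in every clock locus, as they did in most protein-coding gene loci. All 10 loci held at least 1, against 92.7% of protein-coding genes, so their presence is near the background. Within 1 kb of a RefSeq start there were 0 of 10 members, against 5.11% of genes, and 0 of 10 with the record start, against 4.08%, so this count is near the background as well. The nearest summit lay 2870 bp upstream of a CLOCK start. In total the loci held 51 SIRT1 peaks of 95517, and 22 of them overlapped the records of 7 members. Per 100 kb the member median was 2.21, against 2.74 over all genes.

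These SIRT1 peaks were weak, as were most peaks of the whole SIRT1 list. At the summit, 42 of 51 had 2 or 3 fragments, against 84.4% of all 95517, and none had more than 5. None reached a q of 0.05, and −log10 q was 0 for 42. The shares behind these 2 counts were not computed over the whole list, but its median −log10 q was also 0. The median fold was 2.94, against 2.78 over the list, and many peaks had exactly this value because they stood for 3 fragments on the lowest background. Folds of the SIRT1 and H3K27ac lists are each relative to their own background and are not compared.

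**Figure D3:**
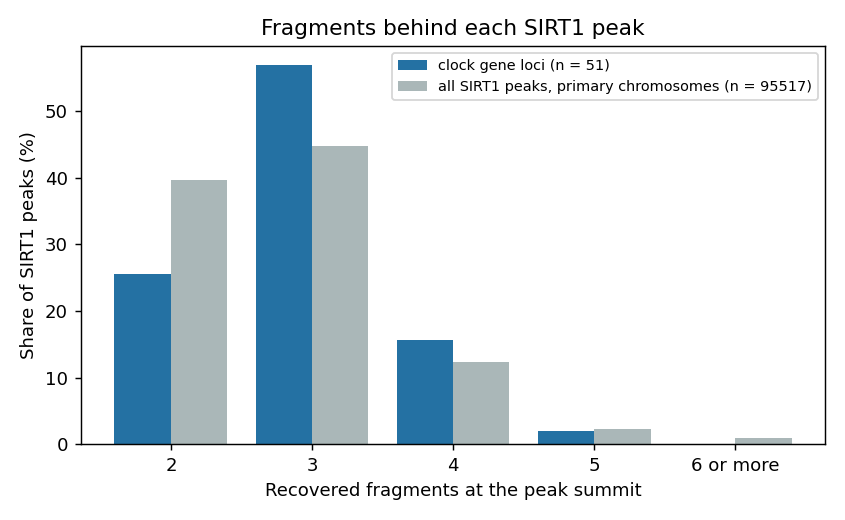
Share of SIRT1 peaks (percent) by the number of fragments recovered at the summit, for the 51 peaks in the clock gene loci and for all 95517 on the primary chromosomes. In both sets most peaks stood on 2 or 3 fragments, 82.4% in the clock loci and 84.4% in all.

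Counting all peaks, BMAL1 had the most SIRT1 peaks of the 10 loci. It held 16, or 7.60 per 100 kb, and 10 of them overlapped the gene record. This density was higher than in 97.6% of protein-coding genes, and 483 genes had at least as high a one. With the H3K27ac density of BMAL1 also required, 4.75 per 100 kb, 36 genes reached both. The strongest SIRT1 peak, from 13352538 to 13353083, had a fold of 4.41 on 5 fragments (1.62 to 11.7) and a −log10 q of 0.614. BMAL1 was singled out after its values were seen, as the highest of 10. Of its 16 peaks only 3 had 4 or more fragments, and PER2 also had 3 such peaks, so its lead came from peaks on 2 or 3 fragments. Without it the other 9 loci had 35 peaks, or 2.32 per 100 kb, against 2.97 with it.

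**Figure D4:**
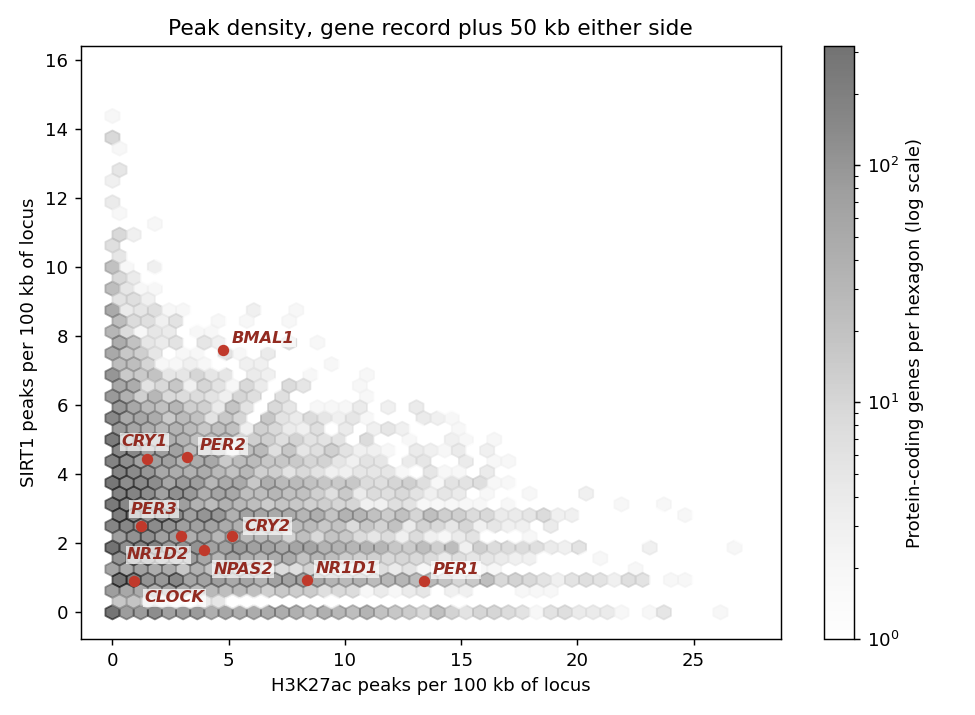
H3K27ac and SIRT1 peaks per 100 kb of locus (gene record plus 50 kb either side), with 20033 protein-coding genes as grey hexagons on a log colour scale and the 10 clock genes as labelled red points. BMAL1 lies high on the SIRT1 axis at 7.60, and PER1 far along the H3K27ac axis at 13.4 with 0.893 SIRT1 peaks per 100 kb.

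The other loci held fewer SIRT1 peaks. CRY1 had 9 and PER2 had 7, or 4.45 and 4.49 per 100 kb. At PER2, 5 of the 7 lay inside the record, and the pair with the highest fold of 3.67 stood on 4 fragments each. NPAS2 had 5, PER3 had 4, CRY2 and NR1D2 had 3 each, CLOCK had 2, and PER1 and NR1D1 had 1 each. The single PER1 peak, from 8160962 to 8161214, had a fold of 2.20 on 2 fragments and lay 810 bp from the H3K27ac peak at VAMP2.

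The 2 maps met once in these loci. Of 51 SIRT1 peaks 1 overlapped an H3K27ac peak, or 1.96% (95% exact binomial interval 0.0496 to 10.4), against 0.745% of all SIRT1 peaks. The interval takes peaks of the same locus as independent and is wide with 1 overlap, so it is not a test of a difference. The pair lay in the BMAL1 gene body. The SIRT1 peak, from 13346143 to 13347207, had a fold of 3.47 on 4 fragments, and the H3K27ac peak, from 13346184 to 13346791, a fold of 7.44 on 14. The summit of the SIRT1 peak lay outside the H3K27ac peak. The median SIRT1 peak of the 10 loci lay 14253 bp from the nearest H3K27ac peak. This distance was not computed over all SIRT1 peaks, so it is a description only.

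Around this core, 25 other genes of the clock system were listed, and 24 had a protein-coding record, all but FBXL21P. H3K27ac lay at the start of 16 of 24, against 56.8% of genes, and with any RefSeq start at 19 of 24, against 59.4%. For 4 of them, CSNK1D and BTRC included, strand was not used and either end of the record counted. The highest folds were at genes with wider roles. CSNK1D, a kinase of the PER proteins, had 75.9, and FBXW11, a ubiquitin ligase subunit that targets them, had 55.7. SIRT1 itself had 50.9, and CSNK2A1, another kinase of the clock, had 48.9.

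Among the genes with no peak at the record start were CIART, HLF, NFIL3, RORA, RORB, TEF and USP2. TEF and USP2 were marked at another RefSeq start, with folds of 27.8 and 27.9, and NFIL3 there by 4 peaks. RORA and RORB, receptors that compete with the REV-ERBs at the RRE, had no H3K27ac peak at any start examined. Of the D-box factors, DBP had a fold of 12.6 and HLF had no peak in its locus. The E-box repressors BHLHE40 and BHLHE41 had 30.2 and 14.1. A SIRT1 peak lay at the record start of 1 of these genes, NFIL3, and at a RefSeq start of 1, RORA.

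The label of the cells was checked on markers in the same H3K27ac list. Of 8 myeloid markers 7 were marked at the start, against 56.8% of protein-coding genes with a known strand, and LYZ was not. The folds were 109 at SPI1, 98.8 at FCER1G, 92.2 at CEBPB and 61.3 at TYROBP. ITGAM, CSF1R and CD14 had 13.9, 11.8 and 11.0, below the median of 19.1 over all genes marked at the record start. Of 17 markers of T cells, B cells, hepatocytes, epithelium and neurons 1 was marked, the B cell gene CD79A with a fold of 6.96. The total read number of each library is not given in the sources used here. The fragment numbers above are recovered from the peak caller's values, and their intervals cover counting error only.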

How the data were processed

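Peaks were called by the authors with MACS2 on hg38, per the submitters' processing notes. Versions, aligner and control: not given in the sources used here. The fold (a ratio to local background), the −log10 p and the −log10 q of each peak are the deposited values. The deposited score equals 10 times −log10 q (H3K27ac) or −log10 p (SIRT1). The smallest −log10 q was 1.30 in the H3K27ac list and the smallest −log10 p was 2.00 in the SIRT1 list.

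Fragments at the summit were recovered from fold and −log10 p, with exactly 1 whole-number solution for 99.996% of H3K27ac and 99.992% of SIRT1 peaks. On simulated peaks 100% were recovered, but these were made with the same formula, so this checks the calculation and not the deposited values. The lowest backgrounds were 0.937 and 0.362 fragments. Any shared base counted as overlap.

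All members were named. Other clock genes were named if among the 5 highest folds or without a peak, neighbours if at a locus's strongest peak; others after their values were seen. Not every gene meeting this rule is reported here. The members and lists were chosen with earlier results of these data known. Alternatives covered thresholds, overlap, windows, flanks and starts. Strand was known for 15842 of 20033 genes, from RefSeq promoters; list genes without it used either end of the record. Tools were scipy 1.17.1, numpy 2.4.6, matplotlib 3.10.9, pandas 2.3.3 and Python 3.11.15.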

Additional observations from a re-analysis of the deposited data

How the results depend on the processing

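The number of members with H3K27ac at the record start ran from 6 to 9 over the settings tried, except a window of 500 bp, which gave 5, against 55.4% of all genes. For the other clock genes it ran from 13 to 16 of 24. With any RefSeq start in place of the record start the counts were 10 and 19. The locus counts scaled with the flank by construction: H3K27ac peaks numbered 31 in the records alone, 43 with 10 kb and 104 with 100 kb, and SIRT1 peaks 22 and 30 with the first 2. The SIRT1 counts fell under stricter thresholds. On at least 4 fragments 9 SIRT1 peaks in 5 loci were left, and with a fold of at least 4 there was 1 peak in 1 locus and 0 overlapped H3K27ac. With the summit required inside, 0 overlapped. For single members, a value was called moved if it changed by more than 1.5 times, or to or from 0. By this rule 10 of 80 values for the fold at the start moved, as did 20 of 70 H3K27ac and 39 of 70 SIRT1 locus counts. All the moved folds were changes to or from 0, where a peak was counted under only 1 of the 2 settings. No paired analysis was possible because each antibody had 1 library and no comparison of replicate groups was made. Few fragments limit the precision of each SIRT1 peak: 3 fragments have a 95% Poisson interval of 0.619 to 8.77. The settings with any RefSeq start and without the BMAL1 or PER1 locus were chosen after seeing the data.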
